A study of Mus musculus with 36 samples.

Results

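The 4 Hox clusters were examined in the peak lists of mouse embryonic stem (ES) cells. A peak is a stretch of the genome where reads of a precipitated protein or histone mark pile up above a control. All peaks that overlapped 4 windows of the mm9 genome build by at least 1 bp were taken: HoxA at chr6:52100001-52220000, HoxB at chr11:96050001-96240000, HoxC at chr15:102740001-102880000 and HoxD at chr2:74490001-74620000. The windows are 120, 190, 140 and 130 kb long, 580 kb in all. They held 208 of the 292990 peaks of the 14 lists. The genes covered are 38 Hox genes: 10 in HoxA (Hoxa2 to Hoxa13), 10 in HoxB (Hoxb1 to Hoxb13), 9 in HoxC (Hoxc4 to Hoxc13) and 9 in HoxD (Hoxd1 to Hoxd13).

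The study profiled ES cells by chromatin immunoprecipitation and sequencing (ChIP-seq) while they moved from serum medium to 2i, a serum-free medium with a pair of kinase inhibitors that favours the naive form of pluripotency. Cells of the KH2 line were kept in serum with LIF on irradiated fibroblast feeders, and samples were taken in serum, after 24 h in 2i with LIF and after 3 passages in 2i. H3K4me3, Nanog and Sox2 were each profiled in these 3 conditions, and Oct4 (Pou5f1) in serum and at 24 h. A further 3 Nanog lists came from a serum sample labelled GFP-high, from a 24 h sample with another antibody lot (# C01MG07 in place of 20100713) and from DNMT triple knockout (TKO) cells after 24 h in 2i. The TKO cells are another line, which lacks the DNA methyltransferases, and both they and the GFP-high sample were precipitated with lot # C01MG07. The TKO list therefore shares its lot with the second 24 h list and not with the first. The marker that GFP reports is not described in the labels. Of the 14 lists, 8 had 2 samples in the labels and 6 had 1: both Oct4 lists, GFP-high, the second 24 h lot, TKO and Sox2 at 3 passages. Each condition is 1 list, so no difference below has a replicate check, an error or a test. H3K27me3, RNA and whole-cell extract samples were not analysed here.

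Hox genes encode homeodomain transcription factors that give cells of the embryo their position along the head-to-tail axis. They lie in 4 clusters, and their order along a cluster follows the order in which they are used along that axis and in time. In ES cells the clusters are a textbook case of bivalent chromatin: H3K4me3, the mark of active and poised promoters, sits there beside H3K27me3, the mark that Polycomb complexes deposit on silent developmental genes. Nanog, Sox2 and Oct4 are the transcription factors that hold ES cells in the pluripotent state. H3K4me3 is placed preferentially on unmethylated, CG-rich DNA, so the CG content of Hox promoters is part of how these clusters are read.

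RefSeq promoter sequences (GRCm38.p6) run from 250 bases before to 50 bases after a gene's start. They were found for 22 of the 38 genes, as 24 windows of 300 bases, since Hoxa10 and Hoxd11 have 2 each: 9 genes of HoxA, 3 of HoxB, 1 of HoxC and 9 of HoxD. Among the genes found, the gene with the most CG dinucleotides in each cluster is printed here, to let its CG content be read from the letters. For HoxC that is the only gene found, and windows with fewer CG are not printed. Sequences run 5′ to 3′ on the gene's strand and capitals mark each CG. Hoxa13 (chr6:52260831-52261130, minus strand) holds 45, Hoxb4 (chr11:96318017-96318316, plus strand) 14, Hoxc4 (chr15:103034145-103034444, plus strand) 9 and Hoxd13 (chr2:74667975-74668274, plus strand) 37. These coordinates are of GRCm38.p6 and the peaks are of mm9. No coordinate was converted, so no peak is assigned to a promoter here and genes are placed along a window only by their order.
Hoxa13: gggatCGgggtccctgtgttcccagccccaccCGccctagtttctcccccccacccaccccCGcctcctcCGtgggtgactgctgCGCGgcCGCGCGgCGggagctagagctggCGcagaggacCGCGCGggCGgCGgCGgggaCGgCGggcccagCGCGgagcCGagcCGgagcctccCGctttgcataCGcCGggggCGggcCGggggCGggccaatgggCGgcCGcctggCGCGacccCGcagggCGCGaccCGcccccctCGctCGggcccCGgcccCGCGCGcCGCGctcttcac
Hoxb4: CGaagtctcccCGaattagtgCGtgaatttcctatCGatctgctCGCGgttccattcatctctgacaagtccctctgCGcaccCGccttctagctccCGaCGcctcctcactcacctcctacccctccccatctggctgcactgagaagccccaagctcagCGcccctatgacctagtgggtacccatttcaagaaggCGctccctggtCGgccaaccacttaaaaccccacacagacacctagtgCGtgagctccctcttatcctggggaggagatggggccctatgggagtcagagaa
Hoxc4: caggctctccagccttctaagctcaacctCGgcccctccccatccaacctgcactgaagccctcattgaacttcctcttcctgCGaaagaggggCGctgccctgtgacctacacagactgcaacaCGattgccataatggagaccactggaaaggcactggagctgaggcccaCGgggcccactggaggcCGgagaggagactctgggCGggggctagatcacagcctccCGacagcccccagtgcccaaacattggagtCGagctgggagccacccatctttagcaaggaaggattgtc
Hoxd13: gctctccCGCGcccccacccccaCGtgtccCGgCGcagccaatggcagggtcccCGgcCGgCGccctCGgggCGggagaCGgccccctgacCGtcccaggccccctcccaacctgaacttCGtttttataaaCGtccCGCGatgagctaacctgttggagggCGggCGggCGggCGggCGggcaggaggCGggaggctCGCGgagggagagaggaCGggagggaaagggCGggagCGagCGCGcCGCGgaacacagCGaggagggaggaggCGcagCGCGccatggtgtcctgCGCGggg

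The Hox promoters were CG-rich on average but spanned a wide range. The 24 windows held a median of 14.5 CG, against a median of 7.00 over all 32851 promoter windows of the table, and 20 of the 24 were above the latter. Their median GC content was 57.7%, against 52.7% over all windows. Hoxa13 and Hoxd13, the genes used last and at the tail end of the axis, had more CG than 98.1% and 94.4% of all windows. At the other end Hoxa9, Hoxd4 and 1 of the 2 Hoxd11 windows held 4 CG each, more than 31.4% of all windows. Hoxa5 and Hoxd1 held 29 each, Hoxa6 26 and the other Hoxd11 window 25. Hoxa3, Hoxd3 and Hoxd9 held 20 each. The 3 HoxB promoters lay close together, with 14 at Hoxb4, 13 at Hoxb8 and 10 at Hoxb1.

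**Figure D1:**
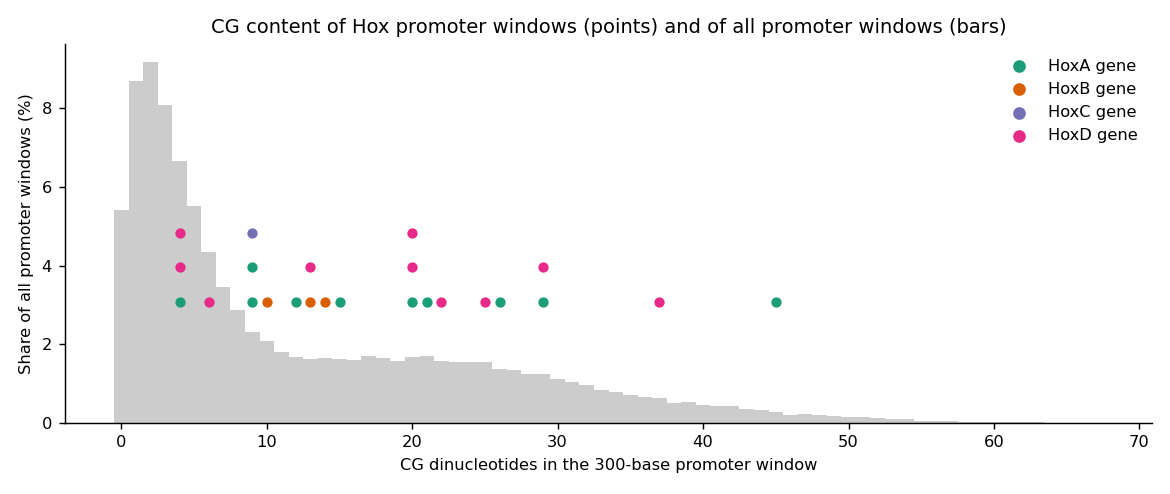
Number of CG dinucleotides in the 300-base promoter window (x axis) against the share of all promoter windows in percent (bars, y axis); each point is 1 Hox promoter window, coloured by cluster and stacked where counts tie, at a height that carries no value. The Hox windows run from 4 to 45 CG, and 20 of 24 lie above the median of all windows.

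H3K4me3 in the 4 clusters did not follow 1 course through the medium change. After 3 passages in 2i it covered 17671 bp of HoxC against 6826 bp in serum, and 2123 bp of HoxD against 8918 bp. HoxA also had less, 4955 bp against 10078 bp, and HoxB had about as much, 7081 bp against 6242 bp. Summed over the 4 windows these opposite differences cancelled: 32064 bp (5.53% of the windows) in serum and 31830 bp (5.49%) after 3 passages. At 24 h all 4 clusters had less than in serum, 18012 bp in all (3.11%). For HoxC that direction did not hold when all 3 lists were shortened to the same number of peaks, where its ratio of 24 h to serum was 1.05.

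The size of each difference was read against the whole list, since the lists themselves differ in extent. The serum list held 19287 H3K4me3 peaks on 32.8 Mb, the 24 h list 17438 on 23.0 Mb and the 3-passage list 18947 on 27.7 Mb. Covered length at 24 h was 0.700 of that in serum over the whole list and 0.562 over the 4 windows. By cluster it was 0.596 in HoxA, 0.660 in HoxB, 0.632 in HoxC and 0.400 in HoxD. HoxA, HoxB and HoxC thus had a ratio little below that of the list as a whole, and HoxD a lower one. The 24 h values of HoxB and HoxD rested on weak peaks: with a -log10 q of at least 10 the ratio was 0.348 in HoxB and 0.169 in HoxD, and with a common lowest -log10 q it was 0.396 and 0.210. The limit of 10 removed no serum peak, since the lowest serum value was 10.5, so it could not raise the ratio. The whole-list ratio under these limits was not computed. After 3 passages the ratio was 0.844 over the whole list. It was 0.993 over the 4 windows, 0.492 in HoxA, 1.13 in HoxB, 2.59 in HoxC and 0.238 in HoxD. HoxC and HoxD therefore stood on opposite sides of the whole-list ratio.

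The genome was also divided into tiles as long as each window, and tiles with at least 5 serum peaks were kept, as each window has. For HoxC, 945 such tiles of 140 kb had a median ratio of 0.799 at 3 passages over serum, and none had a ratio above the 2.59 of HoxC. For HoxD, 927 tiles of 130 kb had a median of 0.798, and 14 of them had a ratio below 0.238. HoxA had 78 of 842 tiles below it and HoxB 1114 of 1175. At 24 h HoxA, HoxB and HoxC lay nearer the middle: 314 of 842 tiles were below HoxA, 560 of 1175 below HoxB and 421 of 945 below HoxC. HoxD did not, with 84 of 927 tiles below it. Tiles that overlap the Hox clusters were not left out, and the HoxD window is itself among its 927 tiles. The tiles are neighbours on the same libraries and are given as a description, not as a test.

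**Figure D2:**
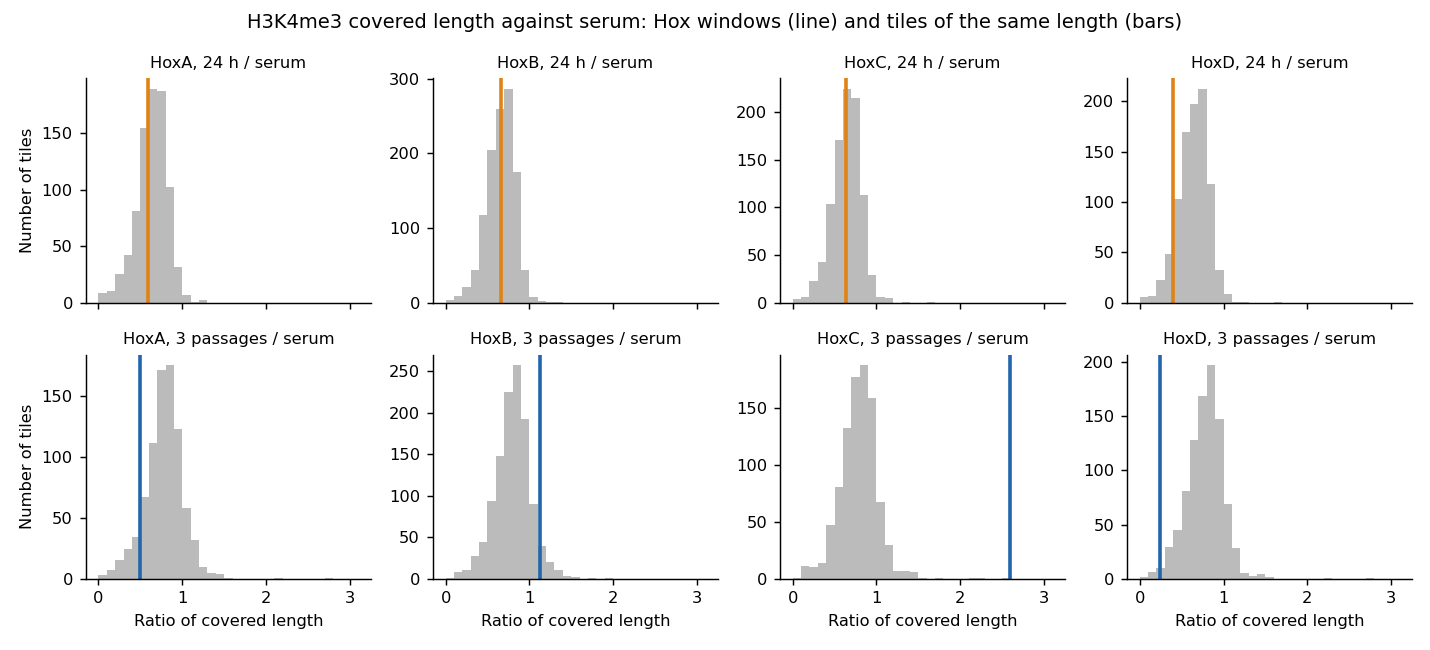
Ratio of H3K4me3 covered length to that in serum (x axis, no unit) for each Hox window (coloured line) and for genome tiles of the same length with at least 5 serum peaks (grey bars, number of tiles on the y axis), at 24 h (upper row) and 3 passages (lower row). The HoxC line at 3 passages, at 2.59, lies above all 945 tiles, and the HoxD line, at 0.238, has 14 of 927 tiles below it.

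The number of peaks went mostly with the covered length. HoxA held 8 H3K4me3 peaks in serum, 6 at 24 h and 5 after 3 passages. HoxD held 10, 5 and 4. HoxB held 6, 6 and 7, and HoxC 7, 5 and 11. HoxC and HoxD thus held opposite places: HoxD had the most peaks of the 4 in serum and the fewest after 3 passages, and HoxC had the most after 3 passages. That HoxD had the fewest did not hold with lists of equal length, where HoxA had 3 peaks after 3 passages and HoxD 4. No H3K4me3 peak lay within 20 kb on either side of any window in any of the 3 lists. In serum the covered length was above that of 95.2% of the 9926 tiles with H3K4me3 in any list for HoxA, and above 92.5% of 9510 for HoxD. After 3 passages HoxD was above 52.2% and HoxC above 99.5% of 9162.

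**Figure D3:**
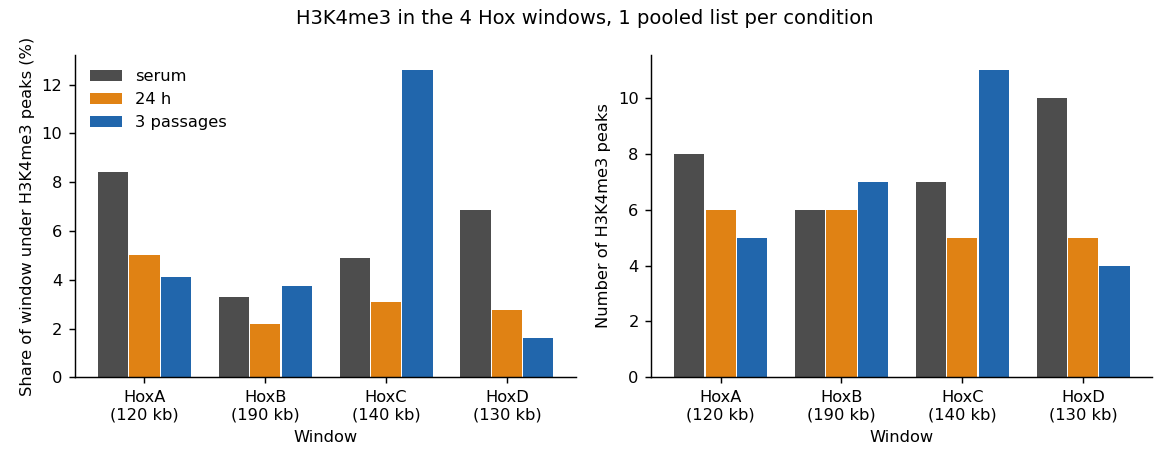
Share of each window under H3K4me3 peaks in percent (left) and number of H3K4me3 peaks (right) for the 4 Hox windows, with 1 bar per condition and 1 pooled list per bar, so without error bars. HoxC runs from 4.88% in serum through 3.08% to 12.6% after 3 passages, and HoxD from 6.86% through 2.75% to 1.63%.

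Most Hox peaks were weak members of their lists. The fold enrichment of a peak over the control is the authors' value. Its strength is read here only within its own list, by rank or against the list median, and folds of different lists are given side by side. The 31 serum peaks had a median fold of 7.03 against 12.6 over the serum list, and 28 of the 31 were below that list median. The 22 peaks at 24 h had a median of 6.28 against 8.16, with 19 below. The 27 at 3 passages had a median of 6.97, with 20 below the median of their list. The exceptions in serum were a pair of HoxA peaks (folds 23.48 and 17.16) and 1 HoxC peak (13.14), all 3 of them also called in the other lists. Weak peaks lie close to a list's lower limit, and this limit differed: the lowest -log10 q was 10.5 in serum, 4.91 at 24 h and 14.3 at 3 passages. Sequencing depth is unknown, because the lists hold no read counts. The part of depth and of these limits in the differences between lists was not tested beyond the alternatives given in the closing section.

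**Figure D4:**
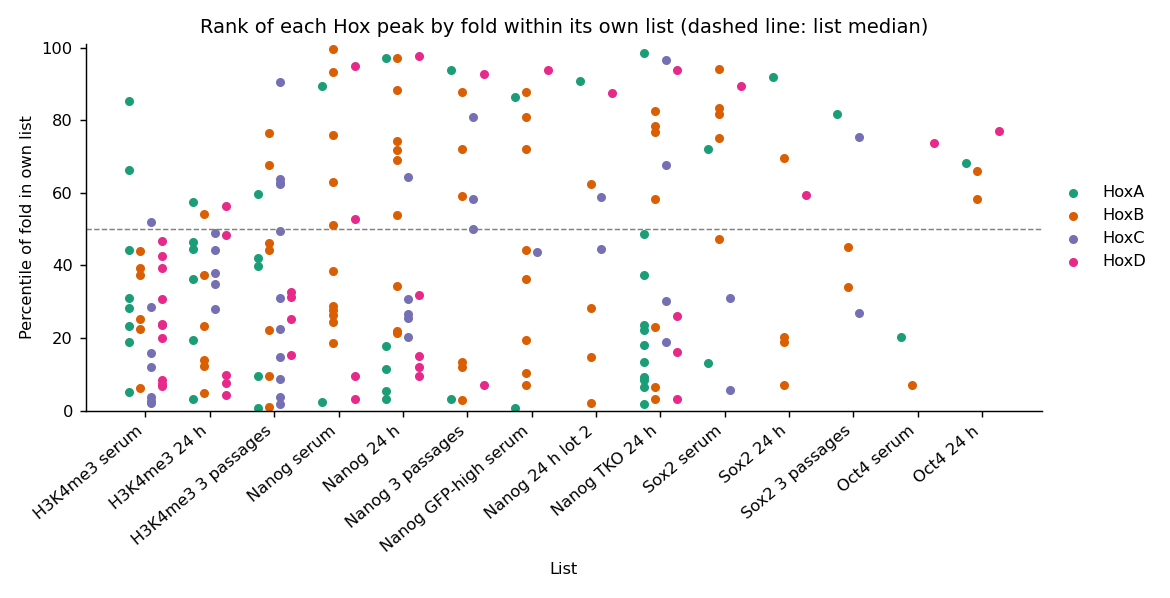
Percentile of each Hox peak's fold within its own list (y axis, percent) for the 14 lists (x axis), with points coloured by window and the dashed line at the list median. H3K4me3 points lie mostly below the line (28 of 31 in serum), while the highest Nanog point, in HoxB in serum, reaches percentile 99.5.

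Joined across the 3 conditions, the H3K4me3 peaks formed 41 regions: 8 in HoxA, 9 in HoxB, 13 in HoxC and 11 in HoxD. Only 14 of these (34.1%) were called in all 3 lists, against 57.4% of the 23047 regions of the genome. Of the rest, 8 (19.5%, against 16.1% over the genome) were called only in serum, 5 of them in HoxD. A further 5 (12.2%, against 11.7%) were called only at 3 passages, 4 of them in HoxC. These 2 shares lie near those of the genome. Another 3 (7.32%, against 4.07%) were called only at 24 h. In serum and at 3 passages there were 6 (14.6%, against 5.73%), and in serum and at 24 h 3 (7.32%, against 3.73%). The last 2 (4.88%, against 1.32%), both in HoxC, were called at 24 h and 3 passages.

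Taken by pairs, 36 Hox regions were called in serum or at 24 h. Of these 14 (38.9%) were only in serum, against 24.7% of all regions, and 5 (13.9%) only at 24 h, against 6.27%. The pair of serum and 3 passages had 38 regions. There 11 (28.9%) were only in serum, against 20.6%, with 6 in HoxD, 3 in HoxA, 2 in HoxC and 0 in HoxB. A further 7 (18.4%) were only at 3 passages, against 13.6%, with 6 in HoxC, 1 in HoxB and 0 in HoxA and HoxD. Between 24 h and 3 passages, 6 of 33 (18.2%) were only at 24 h, against 9.99%, and 11 (33.3%) only at 3 passages, against 21.0%. In the lists as deposited, the Hox share in 1 list alone was above the share over the genome in every pair. These counts moved with the lists' limits. With lists of equal length 7 regions were only in serum against 24 h, and with a common lowest -log10 q 1 was only at 24 h. Against 3 passages, 8 only in serum stood beside 9 only at 3 passages with equal lengths, and 6 beside 10 with a common lowest -log10 q, so which of the 2 lists held more regions of its own changed. With peaks up to 1000 bp apart joined, the regions only at 3 passages numbered 4. The regions only in serum were the weaker ones there: their median serum fold was 5.43 (n = 14) where the 24 h list lacked them and 9.45 (n = 17) where it had them. Over the genome these medians were 6.26 and 16.21.

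The 14 regions called in all 3 lists showed how widths differed where all conditions had a peak. At 24 h 12 of the 14 (85.7%) were narrower than in serum, against 88.7% of the 13236 such regions of the genome. At 3 passages 9 of 14 (64.3%) were narrower, against 68.8%. These shares lie near those of the genome. In HoxD all 3 such regions were narrower at 3 passages, with 1806 bp in all against 2948 bp in serum. In HoxB 3 of 4 were wider.

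HoxC carried the widest H3K4me3 peak of any Hox window. At 3 passages a peak of 6796 bp lay at chr15:102758792-102765587, with a fold of 24.40 and a -log10 q of 292. It was the peak of rank 22 by width among the 18947 of its list. In serum this stretch held no peak, and at 24 h it held 1 of 880 bp (fold 6.22). At 3 passages it was flanked by a peak of 1104 bp (chr15:102757574-102758677) that neither other list held, 114 bp away. On its other side, 1046 bp away, lay a peak of 1665 bp (chr15:102766634-102768298), of which the 24 h list held 355 bp. These 3 peaks covered 9565 bp of a block of 10725 bp, and made up 54.1% of all H3K4me3 in HoxC at 3 passages. The same block held 1235 bp at 24 h and 0 bp in serum. It lies toward the low-coordinate end of the window, the end where Hoxc13 stands in the gene order.

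The excess of HoxC over serum lay mostly in that block (settings chosen after the data were seen). Without the widest peak, HoxC had 10875 bp at 3 passages, 1.59 times serum. Without that peak and its 2 neighbours it had 8106 bp, 1.19 times serum. That ratio is near the 1.13 of HoxB and above the 0.844 of the whole list. Its place among the tiles was not computed. Elsewhere in HoxC, chr15:102843917-102845550 spanned 770 bp in serum, none at 24 h and 1634 bp at 3 passages. The region chr15:102829300-102830141 spanned 842 bp in serum, none at 24 h and 375 bp at 3 passages. The HoxC peak with the highest serum fold, at chr15:102751499-102752943, kept much the same width, 1445 bp in serum, 1100 bp at 24 h and 1400 bp at 3 passages.

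HoxD was the reverse case, with small peaks spread along the cluster in serum and few of them in 2i. Its widest region, which also had its highest serum fold (11.72), lay at chr2:74600622-74601830 and spanned 1209 bp in serum, 680 bp at 24 h and 491 bp at 3 passages. Of the 5 widest regions not called throughout, 3 were called in serum only: chr2:74493224-74494396 (1173 bp, fold 5.24), chr2:74542346-74543338 (993 bp, fold 8.10) and chr2:74565247-74565960 (714 bp, fold 5.04). Their serum -log10 q values were 11.3, 24.5 and 14.7, and the first is below the lowest value of the 3-passage list (14.3). The region chr2:74535669-74536851 was also called at 24 h, and chr2:74506283-74507049 also at 3 passages, where it spanned 317 bp against 767 bp in serum. With 1 exception, a 24 h peak of 531 bp, no HoxD region appeared in 2i that serum lacked. The 3 regions that remained in all lists had serum folds of 9.85 to 11.72, the highest of the cluster.

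HoxA held the strongest serum peaks of the 4 clusters. Its widest region, chr6:52107409-52109719, lay at the end where Hoxa2 comes first in the gene order and spanned 2311 bp in serum, 2028 bp at 24 h and 1566 bp at 3 passages. Its highest serum fold, 23.48, was at chr6:52141845-52142840, where the peak was 891 bp wide in serum, 675 bp at 24 h and 911 bp at 3 passages. The 4 regions not called throughout were all called in serum. A pair of them, chr6:52122110-52123161 (fold 6.35) and chr6:52171124-52172293 (fold 7.70), was held at 24 h and not at 3 passages. The region chr6:52175457-52176472 (fold 4.84) was in serum only, with a -log10 q of 11.3, below the lowest value of the 3-passage list (14.3). The last, chr6:52209801-52210356, nearest the Hoxa13 end, was in serum (556 bp) and at 3 passages (416 bp).

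In HoxB every serum region was also called at 3 passages, some wider and some narrower. Its widest region, chr11:96112146-96115231, spanned 1411 bp in serum, 707 bp at 24 h and 3030 bp at 3 passages, and was followed there by a peak of 512 bp (chr11:96115367-96115878) that neither other list held. The region with the highest serum fold, 11.07, at chr11:96132722-96134093, was 1328 bp wide in serum, absent from the 24 h list and 612 bp wide at 3 passages. The region chr11:96215615-96216599 followed the same pattern, with 985 bp, none and 514 bp. The 24 h list alone held a pair of narrow regions, chr11:96064335-96064693 (359 bp) and chr11:96145963-96146394 (432 bp). Both had -log10 q values of 7.86 or less, below the lowest value of either other list.

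**Figure D5:**
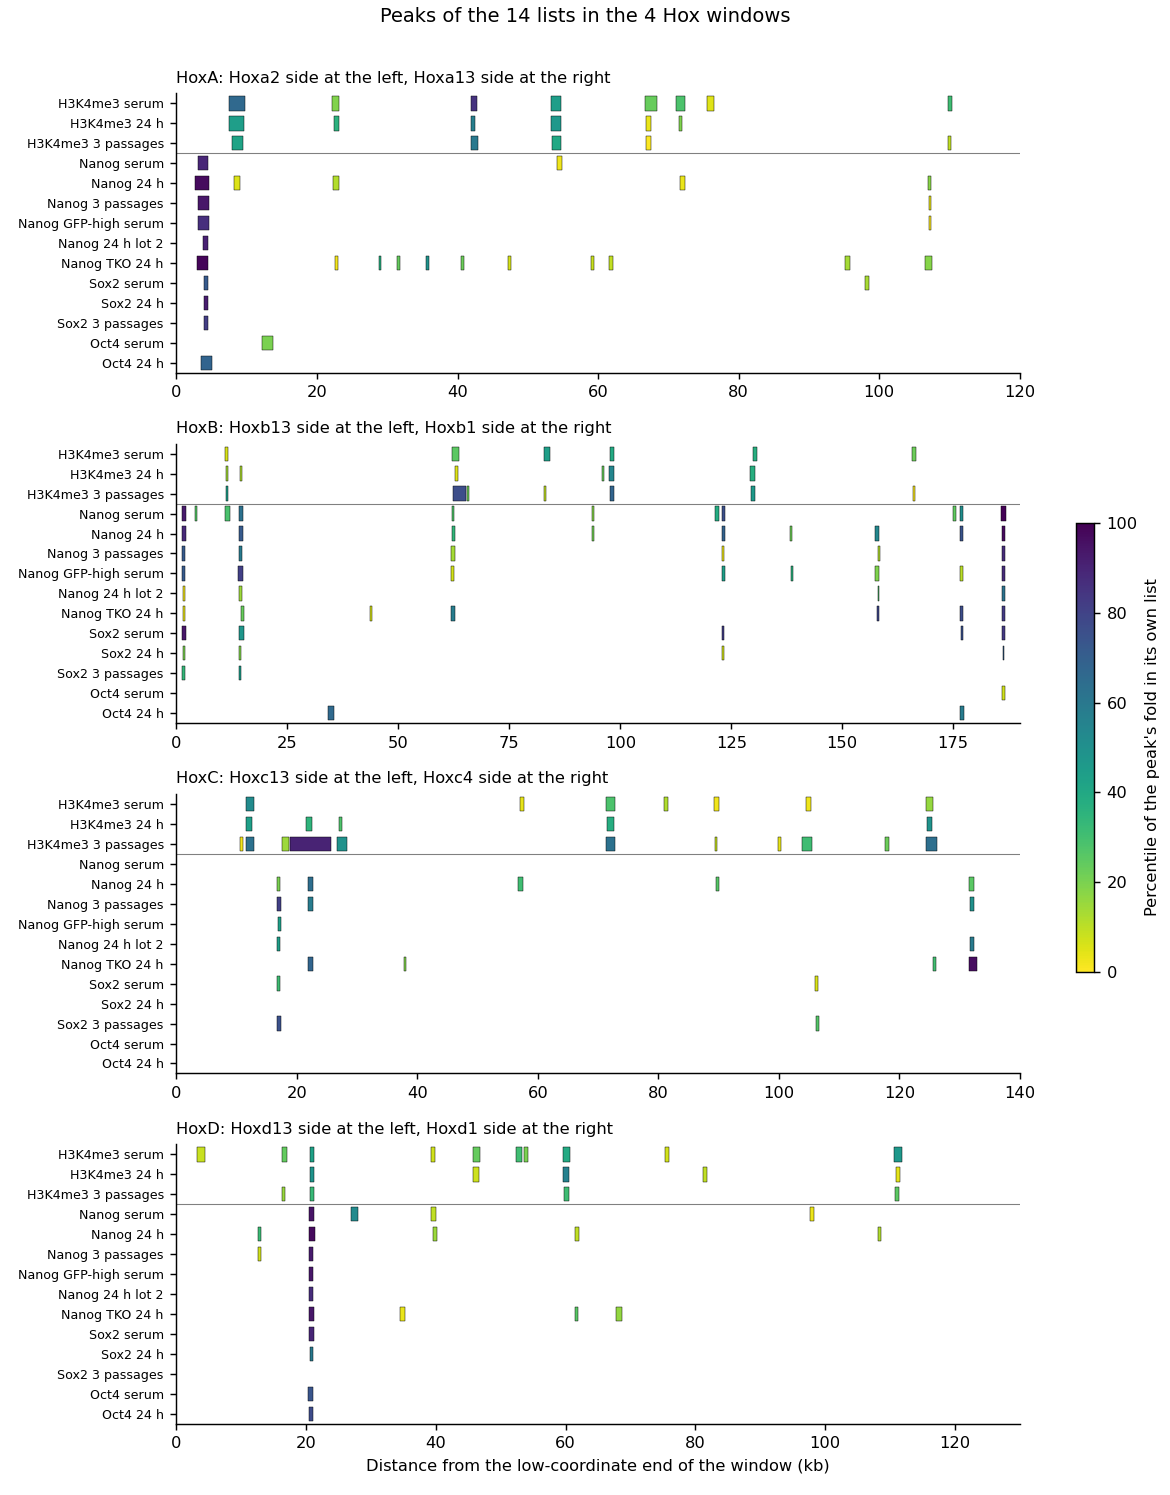
Position of every peak of the 14 lists in each Hox window, in kb from the low-coordinate end of the window (x axis), with 1 line per list (y axis) and bars drawn to the peak's width; colour is the percentile of the peak's fold in its own list, and the grey line divides H3K4me3 from the factor lists. The broad HoxC peak of 6796 bp stands out at 3 passages, as do the columns of factor peaks at the low end of HoxA, at both ends of HoxB and at about 20 kb in HoxD.

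All 11 factor lists were denser in the clusters than over the genome, and few sites were common to most of them. In serum, Nanog had 2.93 peaks per 100 kb of the windows against 0.967 over the genome, Sox2 had 1.72 against 0.497 and Oct4 had 0.517 against 0.190. For Nanog, serum gave 17 peaks, 24 h gave 24 and 3 passages gave 13. GFP-high serum cells gave 12, the second antibody lot at 24 h gave 8 and TKO cells gave 26. The 3 Sox2 lists, in the same order of conditions, had 10, 6 and 5, and Oct4 had 3 in serum and 4 at 24 h. The 24 and 8 Nanog peaks at 24 h came from lists of 41755 and 21893 peaks. The first list had 2 samples and the second, with the other lot, had 1, so lot and pooling cannot be told apart. With the Nanog lists cut to equal length, both held 8. Numbers of Nanog peaks in different conditions are given side by side and no order is read from them.

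Joined across the 11 factor lists, these peaks formed 48 regions: 16 in HoxA, 15 in HoxB, 8 in HoxC and 9 in HoxD. Of the 48, 28 (58.3%) were called in 1 list, against 41.0% of the 71038 factor regions of the genome. A further 5 (10.4%) were called in 8 or more lists, against 11.6%. The clusters thus held a larger share of regions seen once and a like share of regions seen in most lists. No Hox region was called in all 11 lists, and over the genome 3.11% of the regions were, a small share for a set of 48.

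The 5 regions called in 8 or more lists lay in HoxA, HoxB and HoxD. In HoxA, chr6:52102594-52105012 was called in 10 lists, all but Oct4 in serum. Its Nanog folds were 32.16 in serum, 46.29 at 24 h and 30.16 at 3 passages, and its TKO fold was 76.41, percentile 98.6 of the TKO list. Its Sox2 folds were 13.47, 14.67 and 10.69, and Oct4 at 24 h had 26.03. It met no H3K4me3 peak in any list. In HoxD, chr2:74510266-74511292 was also called in 10 lists, all but Sox2 at 3 passages. Its Nanog folds were 43.68 in serum, 48.50 at 24 h and 28.18 at 3 passages, and it was the only region of the 4 clusters that both Oct4 lists held (24.73 in serum, 30.52 at 24 h).

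That HoxD region differed from the other 4 in its chromatin. It met H3K4me3 in all 3 conditions, at chr2:74510537-74511278, where the H3K4me3 peak spanned 742 bp in serum, 617 bp at 24 h and 553 bp at 3 passages. These peaks were of middling strength, with folds at percentiles 42.6, 48.3 and 32.6 of their lists. Of the other 4 regions, 1 met H3K4me3, in the 24 h list alone.

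HoxB held the other 3, near both ends of its window. At the Hoxb13 end, chr11:96051243-96052125 was called in 9 lists, with Nanog folds of 39.21 in serum, 28.75 at 24 h and 13.66 at 3 passages and Sox2 folds of 25.05, 4.65 and 5.81. In TKO cells its fold was 6.23, at percentile 3.28 of that list, and with the second lot at 24 h it was 5.51, at percentile 2.18. Nearby, chr11:96063846-96065226 was called in the same 9 lists, at percentile 81.0 of the GFP-high list, 63.1 of Nanog in serum, 14.8 of the second lot and 23.1 of the TKO list. At the Hoxb1 end, chr11:96235768-96236790 had a fold of 75.97 in Nanog serum, percentile 99.5, with 45.98 at 24 h and 22.27 at 3 passages. Oct4 was called there in serum (11.08) and not at 24 h. Oct4 at 24 h had its HoxB peaks elsewhere, at chr11:96084161-96085555 (24.89), which no other list held, and at chr11:96226495-96227440 (22.35).

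In HoxC no Nanog peak was called in serum, and no Oct4 peak in either condition. Oct4 counts were small throughout, with 1 or 2 peaks per list in each other window. The serum Nanog list had 2, 11 and 4 peaks in HoxA, HoxB and HoxD. Over the genome it had 0.967 peaks per 100 kb, and the Oct4 lists had 0.190 in serum and 0.296 at 24 h. The lack of these peaks is therefore not read as a trait of HoxC. The 2i lists of the same antibody lot held 5 Nanog peaks at 24 h and 3 at 3 passages. GFP-high serum cells held 1, with the other lot, so lot and cell fraction cannot be told apart there. The most often called region was chr15:102756682-102757332, in 6 lists. Its Nanog fold was 7.25 at 24 h, 10.25 with the second lot at 24 h and 17.51 at 3 passages. In GFP-high serum cells it was 10.32, the peak of that list in HoxC. Sox2 was called there in serum (8.03) and at 3 passages (9.36). It lies just before the H3K4me3 block of HoxC. Inside the broad H3K4me3 peak itself, chr15:102761864-102762746 carried Nanog at 24 h (14.16), at 3 passages (10.22) and in TKO cells (13.98). It had no Nanog peak in serum, in GFP-high serum cells or with the second lot at 24 h, so the Nanog lists of KH2 cells at 24 h differed there. Toward the Hoxc4 end, chr15:102871562-102872922 had a TKO fold of 53.47, percentile 96.7 of that list. The fold there was 7.72 at 24 h (percentile 25.5), 8.89 at 3 passages (percentile 49.9) and 12.74 with the second lot at 24 h (percentile 58.9).

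HoxA and HoxD held few further regions in more than 1 list. In HoxA, chr6:52206541-52207524, toward the Hoxa13 end, was called in 4 Nanog lists with folds of 4.59 to 8.06, and chr6:52122338-52123074 in Nanog at 24 h and in TKO cells. Oct4 in serum had its 1 HoxA peak at chr6:52112150-52113674 (13.48), away from the region that Oct4 held at 24 h. In HoxD, 3 regions were called in 2 lists each: chr2:74502557-74503050, chr2:74529244-74530091 and chr2:74551426-74552007, with folds of at most 8.55. A Nanog peak at chr2:74516884-74517918 (12.60) was called in serum alone.

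The TKO list held 13 of the 28 regions called in 1 list (46.4%), a share near the 48.3% over the genome. Of the 48 regions, 13 (27.1%) were called in the TKO list only, against 19.8% over the genome. Of these, 8 lay among the 16 of HoxA, 1 among the 15 of HoxB, 2 among the 8 of HoxC and 2 among the 9 of HoxD. The 8 in HoxA had folds of 6.77 to 10.57, all below the median of the TKO list (10.8). HoxA lies on chromosome 6, where 35.1% of factor regions were in the TKO list only, against 18.7% to 19.8% on the chromosomes of the other 3 clusters. The TKO list had 9.50% of its peaks on chromosome 6, against 5.98% to 6.17% in the 5 Nanog lists of KH2 cells. What sets that chromosome apart in the TKO cells was not tested, and the HoxA count cannot be told apart from it.

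Nanog peaks in the clusters met H3K4me3 more often than Nanog peaks in general. In serum 5 of the 17 (29.4%) met an H3K4me3 peak of the same condition, against 11.1% of the serum list. At 24 h it was 7 of 24 (29.2%), against 9.89%, and at 3 passages 3 of 13 (23.1%), against 8.46%. The windows hold more H3K4me3 peaks per length than the genome, for example 5.34 per 100 kb in serum against 0.730, and its part in these shares was not tested. The 3 at 3 passages were the HoxD region above, the region inside the broad HoxC peak and chr11:96111841-96112737 in HoxB. The HoxB region overlapped the widest H3K4me3 region of that cluster and was called in 5 Nanog lists, with folds of 9.10 in serum, 8.60 at 24 h, 5.59 at 3 passages, 6.27 in GFP-high cells and 11.90 in TKO cells. The widest H3K4me3 regions of HoxB and HoxC at 3 passages thus met a Nanog peak in that condition, and those of HoxA and HoxD did not. The share for wide H3K4me3 peaks over the genome was not computed.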

How the data were processed

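Per the submitters' processing notes the genome build was mm9. The peak caller listed there is MACS2, and the aligners are BWA 0.5.7 and Bowtie 0.12.7, with no role or order given. Each deposited list gives a fold enrichment (a ratio over control) and a -log10 q per peak. Per the peak names in the files, replicates were pooled before calling, and gaps in the peak numbers show that not all called peaks were kept, by a rule not given in the sources used here. Read depth is unknown. From these lists, peaks overlapping a window by 1 bp were counted, covered length was their union inside the window, and peaks of several lists were joined where they overlapped by 1 bp (Python 3.11.15, numpy 2.4.6). The interval code was checked on simulated data. Peaks on unplaced contigs were left out. Regions named are, per window, the widest, the one with the highest serum fold, and regions called in some H3K4me3 lists (all if at most 5, otherwise the 5 widest). Factor regions named are the 3 in most lists and the 3 whose peak had the highest fold in any list, a rule that compares fold values of different lists; any others were chosen after their values were seen. The windows, genes and lists were chosen with earlier results of these data known. The labels give the Sox2 libraries as RNA, although they carry an antibody, and they were treated as ChIP-seq. The 7 alternatives planned and the 2 added after the data were seen are in the closing section. No p-value was computed, because each condition is 1 list.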

Additional observations from a re-analysis of the deposited data

How the results depend on the processing

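No paired analysis was possible because each condition is 1 list of pooled replicates, and for the same reason no replicate could be left out in turn. Over the 4 windows together, counts and covered lengths stayed within 1.5 times of those reported when peaks were placed by their centre, when windows were extended by 20 kb, when peaks up to 1000 bp apart were joined (peak and region counts only) and when an overlap of 50% of the shorter peak was required (region counts only), except that joining left 4 regions only at 3 passages against serum in place of 7. Limits on the lists moved more values. With the lists of each target cut to the length of the shortest, 7 Hox regions were only in serum against 24 h, and peaks numbered 8 for Nanog at 24 h, 8 for Nanog at 3 passages, 11 for Nanog in TKO cells and 3 for Sox2 at 24 h. With a common lowest -log10 q per target, 6 regions were only in serum against 3 passages, and peaks numbered 9, 15 and 8 for Nanog in serum, at 24 h and at 3 passages, and for Sox2 1 at 24 h and 2 after 3 passages. With a -log10 q of at least 10, Sox2 at 24 h kept 2 peaks. The 22 H3K4me3 peaks at 24 h numbered 13 at that limit and 12 with the common one, and the 5 regions only at 24 h against serum numbered 2 and 1. HoxB at 24 h then had 2 H3K4me3 peaks in place of 6, and HoxD 2 in place of 5, under either limit. Over the planned settings, the ratio of H3K4me3 covered length at 3 passages to serum ran from 2.59 to 4.32 in HoxC. In HoxD it ran from 0.238 to 0.295. In the 2 settings added after the data were seen, the HoxC ratio was lower. It was 1.59 without the widest HoxC peak and 1.19 without that peak and its 2 neighbours. At 24 h the planned settings gave ratios to serum of 0.632 to 1.05 in HoxC, where serum had 3 peaks left in the lists of equal length. Read depth is unknown, and its part in these counts was not tested.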
